A study of Arabidopsis thaliana with 2 samples.

Results

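LHY is a MYB-type transcription factor of the plant circadian clock that accumulates around dawn and, with its close relative CCA1, represses genes expressed later in the day. It binds DNA through a short A- and T-rich motif known as the evening element and through related sequences. In the compact genome of Arabidopsis thaliana most sites of this kind lie close to a gene start, so the sites described here, those listed far upstream of a gene, are the less typical ones. They were chosen by position: every pair of a gene and a peak whose position was below −2000 bp, counted from the transcription start site (TSS). This held for 304 of the 1762 pairs in the list (17.3%), at 277 of 1602 genes.

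Chromatin was immunoprecipitated with an antiserum to LHY from seedlings of the Col-0 ecotype at an age of 2 weeks, 2 h after dawn, and input DNA of the same material was the control. DNA of 4 ChIP samples was pooled into 1 library and set against 1 input library, so no value below has a replicate error. Whole seedlings were used, so the cell types in which a site was bound cannot be told apart. The strength of a peak is its −log10 q against input as the authors give it, and a peak above another in this measure is better separated from input, not necessarily more occupied. Each peak had been assigned by the authors to the closest gene that faces away, and read depth was not analysed here. Position and strength come from the same comparison of ChIP with input, so strengths are described without a test. Genes are not replicates and neighbours share peaks, so shares of genes are also given without a test, with exact (Clopper-Pearson) 95% intervals that cover counting error only.

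Distal peaks were listed on every chromosome, from 41 of 274 pairs on chromosome 4 (14.96%) to 71 of 376 on chromosome 3 (18.9%). Their median position was −3150.5 bp, 168 lay more than 3000 bp upstream, 58 more than 5000 bp and 3 more than 10000 bp. The farthest was at SOS2, a protein kinase of salt tolerance (−20124 bp, −log10 q of 6.001). The next were at AT2G09830, a copia-like retrotransposon (−12387 bp, 4.84), IAA14, an Aux/IAA repressor of auxin response (−10805 bp, 8.49), RD21A, a cysteine protease gene induced by drought (−9993 bp, 11.2), and AT3G33058, a gypsy-like retrotransposon (−9934 bp, 21.1). The pairs just inside the limit were those of GRF4 (−2004 bp, 11.7), AT5G62360 (−2009 bp, 5.16) and AT5G25290 (−2018 bp, 9.39). Just outside it were IAA14 with its second peak (−1996 bp, 4.50), AT5G15990 (−1992 bp, 10.5) and SKP1 (−1967 bp, 8.50).

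Peaks far from the gene they are listed under were nearly as strong at the median as nearer ones, and none was among the 10 highest values. A peak listed under neighbouring genes can count in both sets. The median −log10 q was 9.39 in the 304 distal pairs (95% order-statistic interval 8.50 to 10.3) and 10.3 in the 1458 nearer pairs (interval 9.73 to 10.5). The quartiles were 6.20 and 14.5 in distal pairs and 6.80 and 17.97 in nearer pairs. A value above 20 was held by 56 distal pairs (18.4%) and by 319 nearer pairs (21.9%), and a value above 100 by 2 and by 25. Of the 10 highest values in the list 0 were distal, of the 50 highest 4, and of the 100 highest 15. Distal pairs were 17.3% of the list, a share near that among the 100 highest. They made up a lower share of the 50 highest and of the values above 100, and 10 pairs are too few to compare.

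**Figure D1:**
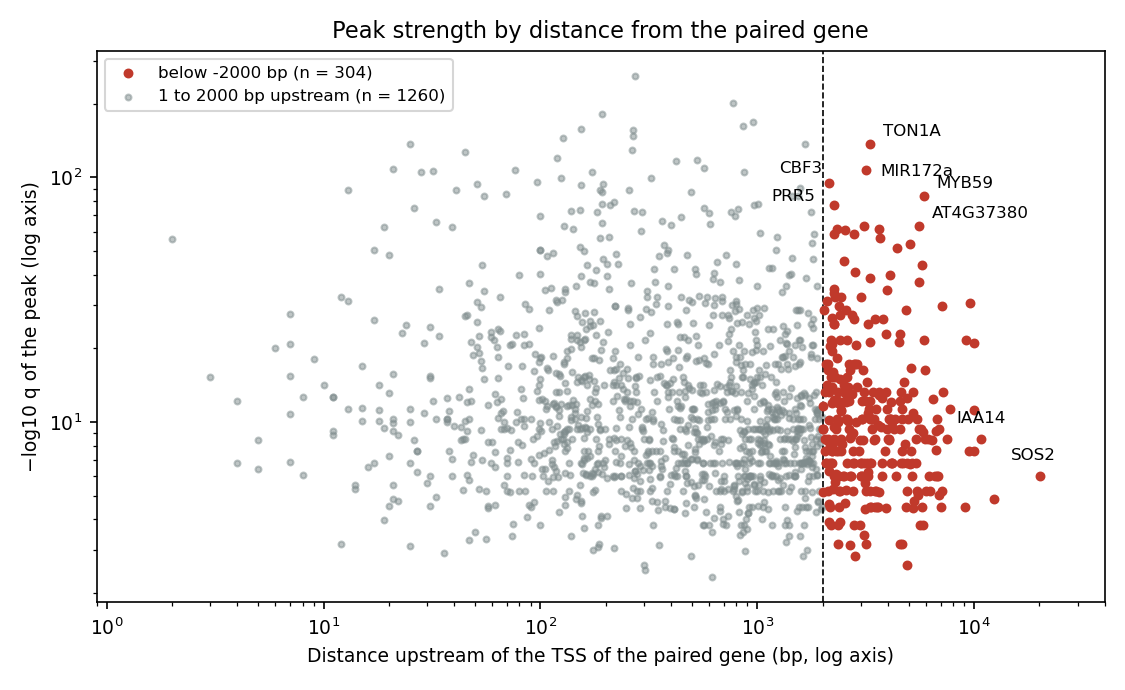
Each point is a pair of a gene and a peak upstream of it, with the distance from the TSS in bp on the horizontal axis and the −log10 q on the vertical axis, both logarithmic. The 304 distal pairs (red, right of the dashed line at 2000 bp) run from 2.61 to 137, and the 3 beyond 10000 bp are all below 10.

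The 15 strongest distal pairs fell on 15 genes of varied function. TON1A, which acts in the organisation of microtubules before cell division, had the highest value, 137 at −3323 bp, and a second distal peak of 21.7 at −2403 bp. MIR172a, a precursor of the microRNA that represses AP2-like repressors of flowering, followed with 107 at −3167 bp; the deposited table calls this locus an expressed protein and the name comes from the reference table. CBF3, also called DREB1A, an activator of cold-response genes, had 94.6 at −2144 bp. MYB59, a MYB transcription factor, had 83.8 at −5843 bp. PRR5, a pseudo-response regulator of the clock, had 77.1 at −2255 bp.

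The other 10 of the 15 strongest ran from 63.2 to 51.3. GA2OX1, which inactivates gibberellins, had 63.2 at −3106 bp, and AT4G37380, a tetratricopeptide-repeat gene, had 63.2 at −5592 bp. AT5G60840, of unknown function, and its neighbour OBP4, a Dof transcription factor, both had 61.6, at −2318 and −3641 bp. CYP71B19, a cytochrome P450, had 61.0 at −2549 bp. GRF4, a growth-regulating factor, and AVP1, the proton-pumping pyrophosphatase of the vacuole, both had 58.9, at −2779 and −2250 bp. SPT, a bHLH factor of carpel development, had 56.5 at −3682 bp, EDA12, named for embryo sac development, 53.4 at −5051 bp, and AT3G60520, of unknown function, 51.3 at −4402 bp.

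Several of these strong peaks were also listed under a neighbouring gene that lies closer. A peak with the same −log10 q under a gene at most 5 places away in the annotation was found for 48 of the 304 distal pairs (15.8%, interval 11.9 to 20.4), in 19 pairs of neighbouring genes. In 17 of these gene pairs 2 or more peaks were listed under both genes, and in all 17 the distances of each such peak to the starts of both genes added up to the same number of bp, with no deviation. This is the pattern of peaks that lie between 2 genes facing away from each other. The sums ran from 2713 bp at AT5G02570 and AT5G02580 to 11040 bp at IAA14 and IAA1. For the other 2 gene pairs, AT3G56720 with SIB1 (21.1) and MAX2 with PPC2 (6.001), there was 1 shared value and no sum to compare; 6.001 was a frequent value in the list.

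The peak of 137 at TON1A was the same as a peak 1664 bp upstream of SMZ, an AP2-like repressor of flowering and a target of miR172, and the second peak lay at −2403 bp from TON1A and −2584 bp from SMZ. The peak of 63.2 listed at −5592 bp from AT4G37380 lay 128 bp upstream of BRU6, an auxin-conjugating enzyme gene of the GH3 family. The peak of 83.8 at MYB59 lay 1442 bp upstream of AT5G59790, a gene of unknown function. At PEP, an RNA-binding protein gene of flower development, the peak of 32.3 lay at −690 bp, against −3014 bp from CIL, its neighbour. The peak of 8.49 listed at −10805 bp from IAA14 lay at −235 bp from IAA1. Among all 38 such shared listings, the nearer start was within 1000 bp in 16, over 1000 and up to 2000 bp in 12, and itself beyond 2000 bp in 10. Those distal to both starts included the peak of 61.6 between OBP4 and AT5G60840 and the peaks of 25.1 and 13.9 between AFP3, a repressor of abscisic acid (ABA) response, and AT3G29577, a gypsy-like retrotransposon.

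**Figure D2:**
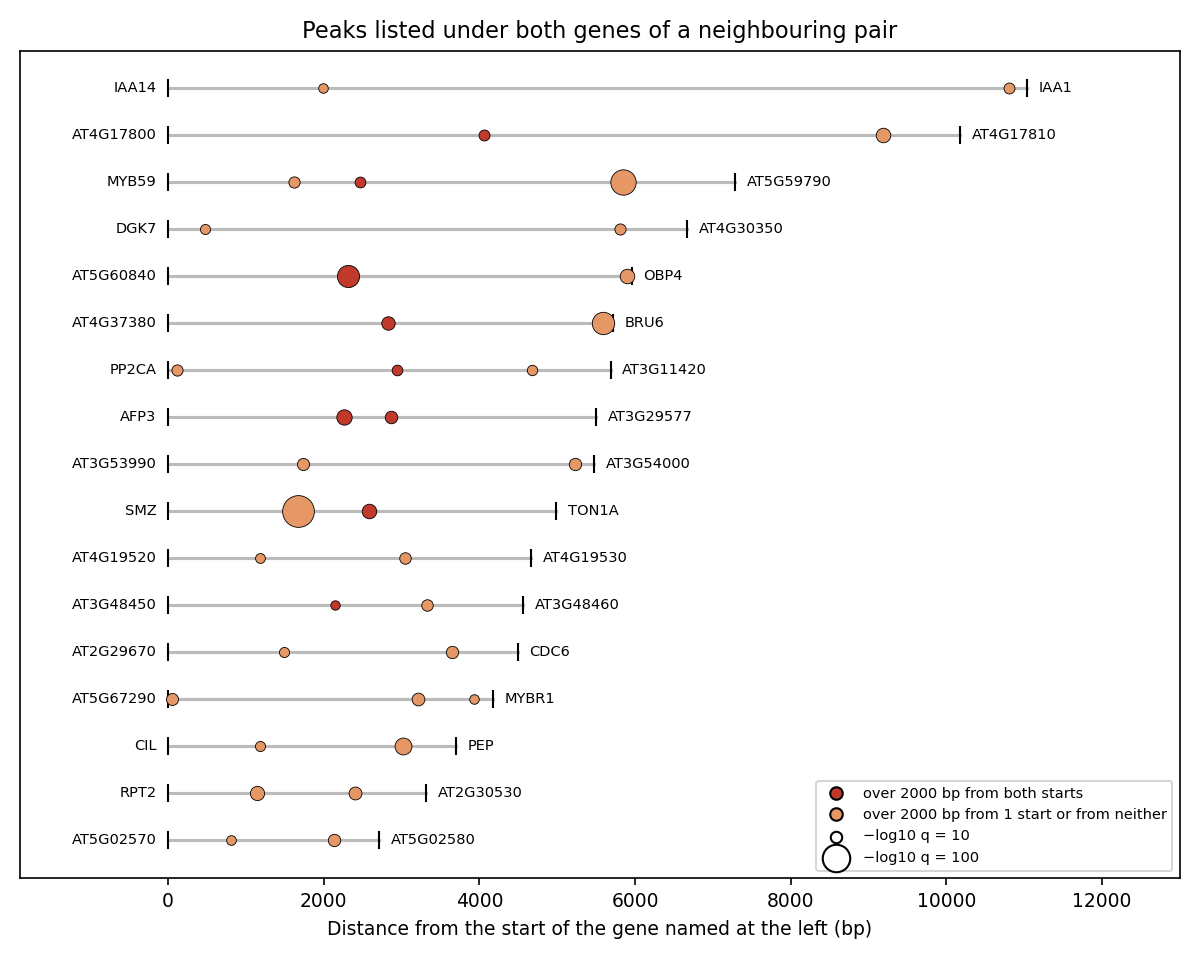
Each row is 1 of the 17 pairs of neighbouring genes that share 2 or more peaks, drawn to scale from the start of the left gene (tick at 0) to the start of the right gene, in bp; circles are peaks and their area grows with −log10 q. Red peaks lie over 2000 bp from both starts, and the strong peaks at SMZ and BRU6 lie nearer to those genes than to TON1A and AT4G37380.

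With each shared peak counted once, under the gene whose start is nearer, 266 distal pairs remained. The 256 distal pairs that were not shared had a median −log10 q of 9.39, and the 48 shared ones 12.3. Among protein-coding genes with a distal peak, 63 of 246 (25.6%, interval 20.3 to 31.5) had an immediately adjacent protein-coding gene in the list, against 144 of 1231 genes without a distal peak (11.7%, interval 9.95 to 13.6). Without the genes whose distal peak was shared, the share was 31 of 211 (14.7%, interval 10.2 to 20.2). Genes with a shared nearer peak were not left out of the 1231, so this share and the 11.7% are not measured alike.

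A nearer peak accompanied the distal one at a minority of the genes. Of the 277 genes, 200 had 1 listed peak, the distal one; 17 had 2 peaks, both distal; and 60 (21.7%, interval 16.96 to 27.0) had a second peak at or nearer than −2000 bp, within 1000 bp of the TSS or downstream of it in 33. Of the 36 genes with a shared distal peak 27 had a nearer peak, and of the other 241 genes 33 had one (13.7%, interval 9.62 to 18.7). At the 60 genes the strongest distal peak was above the strongest nearer peak in 30 and below it in 30. Of these genes 18 form 9 pairs of neighbours, such as CIL and PEP, that share both peaks in mirror image and so fall on opposite sides by construction. In the other 42 the distal peak was above in 21 (50.0%, interval 34.2 to 65.8). Over all 60 the values had medians of 11.3 at the distal and 10.7 at the nearer peak. Both exceeded 20 at 5 genes, the distal peak alone at 9 and the nearer one alone at 13. The median spacing was 2250 bp.

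Among the 60 genes, those with a stronger distal than nearer peak included CBF3, where 94.6 at −2144 bp stood beside 15.3 at −123 bp, and TIC, a clock regulator, with 27.5 at −2730 bp and 6.74 at −183 bp. HSFA6B, a heat stress transcription factor, had 28.7 at −2030 bp and 21.7 at −304 bp, values close to each other. The opposite order was seen at BRU6, with 17.3 at −2889 bp and 63.2 at −128 bp, and at HAI2, an ABA-induced phosphatase, with 7.63 at −2425 bp and 65.3 at −193 bp. DIP2, of unknown function in the deposited table, had 11.3 at −3276 bp and 48.7 at −222 bp. ACA8, a calcium pump, had 11.3 at −4668 bp and its stronger peak, 41.2, downstream of the TSS at 469 bp. PUB9, a U-box gene, had 3.77 at −5780 bp and 72.2 at −1762 bp.

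**Figure D3:**
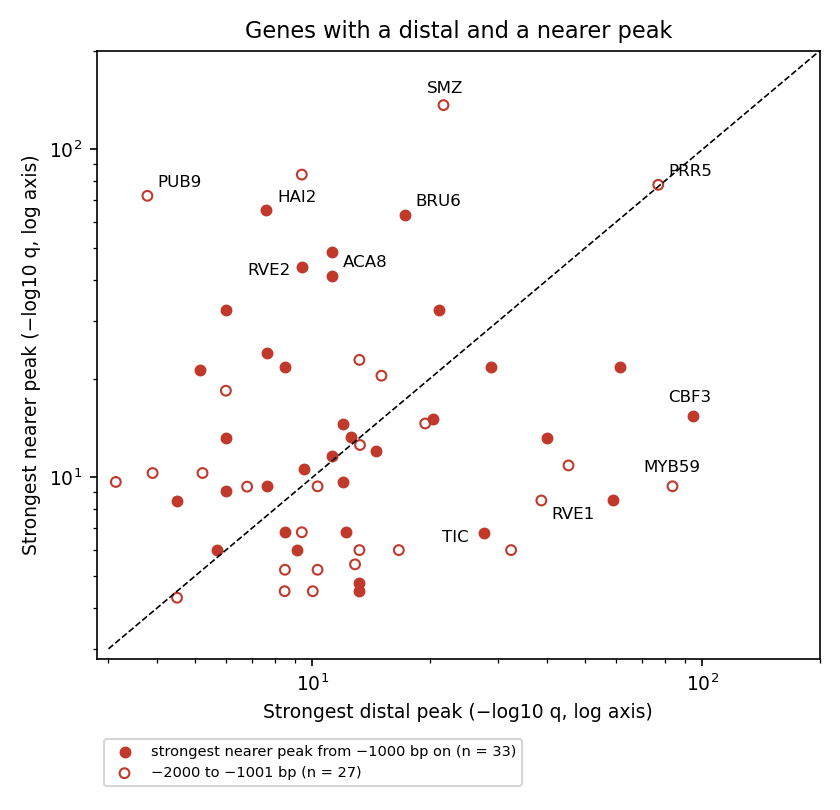
Each point is 1 of the 60 genes with a distal and a nearer peak, with the −log10 q of the strongest distal peak on the horizontal axis and of the strongest nearer peak on the vertical axis, both logarithmic; the dashed line marks equal values and open circles have the nearer peak over 1000 bp upstream. There are 30 points on each side of the line, of which 9 on each side are mirror images from neighbours that share both peaks, and PRR5 sits almost on it with 77.1 and 78.0.

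At 13 of these genes 3 or more peaks were listed. AT5G62360, a pectin methylesterase inhibitor-like gene, was the gene with 4: 5.16 at −2009 bp, 11.6 at −1584 bp, 9.20 at −867 bp and 21.2 at −152 bp. GRF4 had 58.9 at −2779 bp, 11.7 at −2004 bp and 8.50 at −933 bp, so its strength was highest at the farthest site. BGAL1, a beta-galactosidase gene, was also highest at the farthest site but lowest at the middle one, with 39.9 at −4111 bp, 6.001 at −3159 bp and 13.2 at −555 bp. AT1G64380, an AP2-domain gene, had the reverse, with 5.18 at −3651 bp, 13.2 at −2353 bp and 22.8 at −1337 bp. The others were ILR2, AT1G26920, HAI2, MYB59 and its neighbour AT5G59790, PP2CA and AT3G11420, and MYBR1 and AT5G67290; the last 3 pairs share all 3 of their peaks.

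A phase of expression was listed for fewer of the genes with a distal peak than of the list as a whole, and both this share and the phases changed with distance already among the nearer peaks. A phase in constant light, which the authors looked up in the Diurnal database, was listed for 85 of the 277 genes (30.7%, interval 25.3 to 36.5), against 38.1% of all genes in the list and 525 of the 1325 genes without a distal peak (39.6%, interval 37.0 to 42.3). Of the 217 genes with distal peaks alone 57 had a phase (26.3%, interval 20.5 to 32.7), and of the 60 with a nearer peak as well 28 did (46.7%, interval 33.7 to 60.0). Genes without a distal peak also differed by their number of peaks. A phase was listed for 38.5% of 1256 with 1 listed peak and 59.4% of 69 with 2 or more. The part of a nearer peak as such was not tested. Pseudogenes were a larger part of the distal genes, and among protein-coding genes the shares were 34.6% of 246 and 42.5% of 1231. Genes were divided at 9.75, the median over the 277 genes of their strongest distal peak. Above it 52 of 138 were rhythmic (37.7%, interval 29.6 to 46.3), against 339 of 710 genes with nearer peaks alone above the same value (47.7%, interval 44.0 to 51.5). At or below it 33 of 139 were rhythmic (23.7%, interval 16.94 to 31.7), against 186 of 615 (30.2%, interval 26.6 to 34.0). The intervals overlapped at both strengths. Which genes the database covers was not analysed here.

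Along the distance scale the share of rhythmic genes was 52.0% for peaks at or downstream of the TSS, 45.7% for 1 to 300 bp upstream, 32.9% for over 300 to 1000 bp and 35.2% for over 1000 to 2000 bp. It was 30.1% for over 2000 to 3000 bp (40 of 133 genes), 26.4% for over 3000 to 5000 bp (28 of 106) and 40.7% for over 5000 to 10000 bp (22 of 54, interval 27.6 to 55.0). The bins from 300 to 10000 bp have overlapping intervals, and shares lower than those near the TSS were already seen within the nearer peaks. A gene counts in every bin where it has a peak, so the bins share genes. Whether the share changes at the limit of 2000 bp was not tested. The median −log10 q over the same 3 distal bins was 10.3, 9.62 and 8.50.

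**Figure D4:**
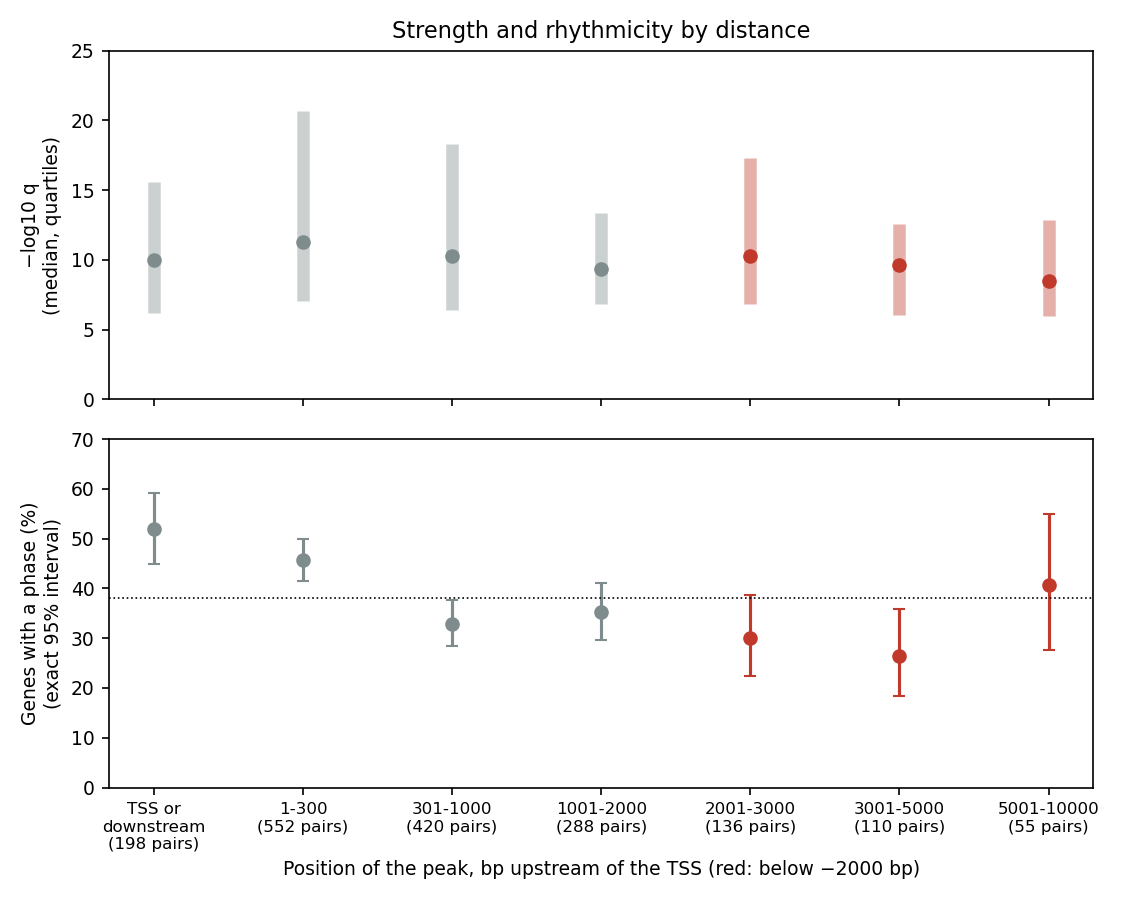
The upper panel gives the median −log10 q (points) and quartiles (bars) of pairs by distance from the TSS, and the lower panel the percent of genes with a listed phase with exact 95% intervals; distal bins are red and the dotted line is the 38.1% of all listed genes. The 3 pairs beyond 10000 bp are not drawn.

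Of the 85 rhythmic genes with a distal peak, 28 (32.9%, interval 23.1 to 44.0) had a phase of 0 to 5 h after subjective dawn. Another 26 (30.6%, interval 21.0 to 41.5) had 6 to 11 h, 17 (20.0%) had 12 to 17 h, and 14 (16.5%) had 18 to 23 h. Among the 525 rhythmic genes without a distal peak, 20.8% (interval 17.4 to 24.5) had the earliest of these ranges and 47.8% (interval 43.5 to 52.2) the next, followed by 16.95% and 14.5%. Within 6 to 11 h the larger difference was at 9 to 11 h. There 4 of 85 distal genes fell (4.71%, interval 1.30 to 11.6), against 86 of 525 others (16.4%, interval 13.3 to 19.8). Those 4 were TIC and BEL1, a homeodomain factor of ovule development, at 11 h, and SIP2, a raffinose-family enzyme gene, and AT5G57170 at 10 h. At 6 to 8 h the shares were 25.9% (interval 16.99 to 36.5) and 31.4% (interval 27.5 to 35.6). Steps of 3 h were not split by distance. From 3 to 5 h there were 22 distal genes (25.9%, interval 16.99 to 36.5), 11 of them at 3 h, OBP4, CRY1 and PSAD-1 among these, against 81 of the others (15.4%, interval 12.4 to 18.8). At 8 h, the commonest phase of the others with 85 genes, there were 8 distal genes, including BGAL1, CIL and RAP2.4. The share with a phase of 6 to 11 h was already lower across the nearer bins of distance, at 61.2% for peaks at or downstream of the TSS, 52.8% for up to 300 bp upstream, 40.9% for over 300 to 1000 bp and 36.0% for over 1000 to 2000 bp. In the distal bins it was 30.0% for over 2000 to 3000 bp (interval 16.6 to 46.5), 32.1% for over 3000 to 5000 bp and 22.7% for over 5000 to 10000 bp (interval 7.82 to 45.4). The intervals of the distal bins overlapped that of the nearest bin below the limit (26.6 to 46.2). In the 60 genes with a nearer peak as well, 12 of 28 phases fell at 6 to 11 h (42.9%), and in the 217 without one 14 of 57 (24.6%). Among rhythmic genes without a distal peak this share was 47.1% of 484 with 1 listed peak and 56.1% of 41 with 2 or more.

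**Figure D5:**
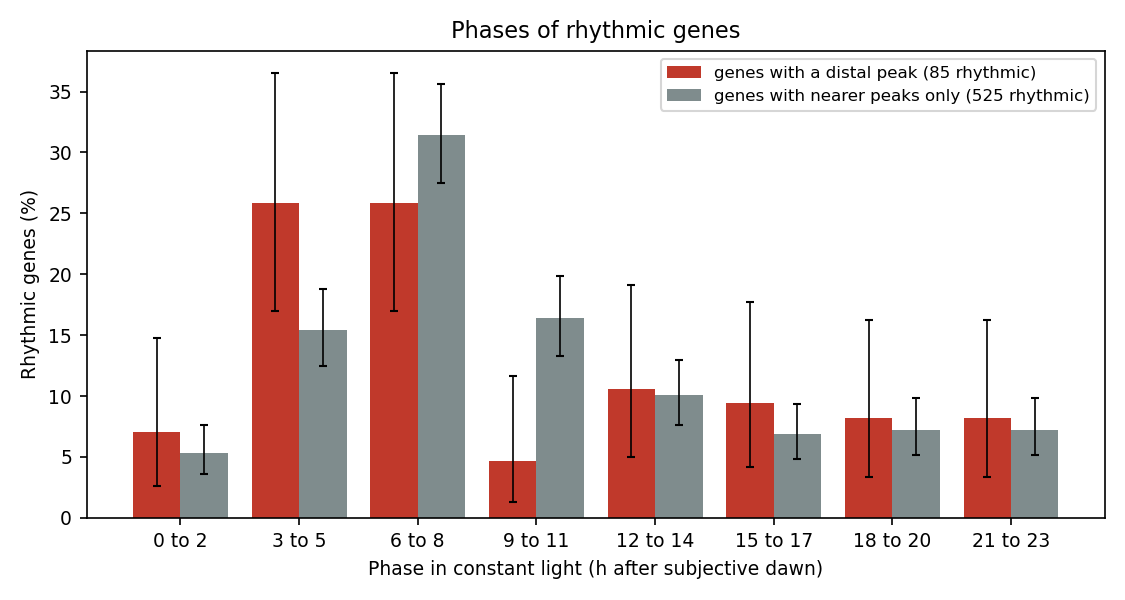
Bars give the percent of rhythmic genes with each phase, in steps of 3 h after subjective dawn, for the 85 genes with a distal peak (red, left of each pair) and the 525 genes with nearer peaks alone (grey), with exact 95% intervals. The red bar is the lower one at 9 to 11 h (4.71% and 16.4%) and the higher one at 3 to 5 h (25.9% and 15.4%).

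By function, as read from keywords in the deposited descriptions, transcription factor genes made up 53 of the 277 genes (19.1%, interval 14.7 to 24.3), against 160 of 1325 genes without a distal peak (12.1%, interval 10.4 to 13.95). Transporter and channel genes made up 14 (5.05%, interval 2.79 to 8.33), against 30 (2.26%, interval 1.53 to 3.22). Genes of unknown function were 32 (11.6%), against 197 (14.9%). Kinases and phosphatases, of proteins or of other substrates, were 11 (3.97%), against 58 (4.38%). Carbohydrate and cell wall enzymes were 12 (4.33%), against 43 (3.25%), and cytochrome P450s and other oxidoreductases 11 (3.97%), against 51 (3.85%). F-box, RING and other ubiquitin pathway genes were 7 (2.53%), against 29 (2.19%). The intervals of the distal and the other shares overlapped for each of these classes except the transcription factors. The keywords, revised after the values were seen, left 107 distal genes unclassified (38.6%, interval 32.9 to 44.6), TON1A, TIC and AVP1 among them, against 667 of the others (50.3%, interval 47.6 to 53.1). Distal genes were thus classified more completely, and the part of this in the share of transcription factors was not tested. The groups described next by role were put together after the values had been seen. Over all distal genes, the shares to set beside their counts were 30.7% with a phase and 21.7% with a nearer peak.

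Clock genes with a distal peak were PRR5, RVE1, RVE2 and TIC, and all 4 were rhythmic and had a nearer peak. At PRR5 the values were 77.1 at −2255 bp and 78.0 at −1003 bp, close to each other; its product represses clock genes of the morning. At RVE1, which encodes a MYB factor promoting auxin production, the values were 38.6 at −3309 bp and 8.50 at −1505 bp. RVE2, of the same family, had the reverse, with 9.39 at −2637 bp and 43.9 at −164 bp. The phases were 7 h for PRR5, 11 h for TIC, 15 h for RVE2 and 23 h for RVE1. Of 15 clock genes listed as acting in the evening 12 had a peak and 1, PRR5, a distal one. Of 13 listed with the morning genes 8 had a peak and 2, RVE1 and RVE2, a distal one. The deposited phases of PRR5 (7 h) and RVE2 (15 h) go against these list names, and over all listed genes the distal share is 17.3%.

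In flowering time, MIR172a and a pair of genes whose messages miR172 targets, SMZ and TOE2, had distal peaks. TOE2, an AP2-like floral repressor, had 26.6 at −2212 bp. SNZ, a relative of SMZ, had a peak of 9.08 at −522 bp, and none was listed at AP2, TOE3 or RAP2.7 (TOE1). SMZ was the only one of MIR172a, SMZ and TOE2 with a phase, at 16 h. LOV1, a NAC factor that delays flowering, had 12.4 at −6427 bp and a phase of 6 h. Genes of microRNA production and action had single distal peaks: DCL1, the enzyme that processes microRNA precursors, had 17.3 at −2115 bp, AGO10, an Argonaute of shoot meristems, 17.3 at −2805 bp, and MIR164b 4.50 at −5746 bp. None of the 3 had a phase.

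Genes of hormone synthesis, breakdown and signalling numbered 15 in the distal set by this reading. Of these 6 were rhythmic, beside 30.7% of all distal genes, and 5 had a nearer peak, beside 21.7%. For gibberellin, GA2OX1 (63.2) stood beside the DELLA repressor gene RGA, listed as RGA1 (16.3 at −5920 bp). These were 2 of the 4 genes with any peak among 21 of this pathway. For brassinosteroids, BR6OX2, a late enzyme of synthesis, had 29.9 at −7133 bp, the receptor gene BRL3 15.2 at −2585 bp, and BAS1, which inactivates the hormone, 5.23 at −6006 bp. CKX3, which degrades cytokinin, had 6.80 at −5418 bp, and MAX2, an F-box gene of strigolactone signalling, 6.001 at −3746 bp. In the auxin list 7 of 30 genes had a peak and 2 a distal one, IAA14 and IAA1, which share their peaks. The 4 gibberellin and 7 auxin genes with a peak are too few to compare with the distal share of 17.3% over all listed genes. For ABA, AFP3 had 25.1 at −2257 bp and 13.9 at −2868 bp, ABI3, a regulator of seed maturation, 10.3 at −3384 bp, and PP2CA, a phosphatase that restrains ABA signalling, 7.64 at −2935 bp and 6.80 at −4682 bp beside 9.39 at −113 bp. ARIA, an interactor of an ABA-response factor, had 4.50 at −2155 bp. The rhythmic members were BR6OX2 (1 h), IAA14 (2 h), IAA1 and MAX2 (4 h), BAS1 (5 h) and ARIA (8 h).

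The cold, light, flowering and jasmonate lists had 9 or fewer genes with a peak each. These are too few to compare their distal counts with the 17.3% of all listed genes. CBF3 was the distal one among 9 cold and ABA response genes with a peak, out of 17 loci matched, and its phase was 6 h. CRY1, a blue-light receptor, was the distal one among 6 photoreceptor and light signalling genes with a peak, at −7000 bp with 4.50. Of 8 flowering list genes with a peak and of 5 jasmonate genes with a peak, 0 had a distal one; MIR172a, SMZ and TOE2 are not in that flowering list.

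Regulators of organ development were 10, of which 2 were rhythmic, beside 30.7% of all distal genes. Besides GRF4 and SPT these were TCP1 (37.4 at −5581 bp) and BRC1, a TCP factor that holds back branching (6.80 at −2998 bp), LBD11 (28.7 at −4862 bp), BEL1 (10.3 at −3383 bp), BLH2 (10.3 at −2329 bp), FLP, a MYB factor of stomata (10.3 at −4090 bp), SPL, which starts sporogenesis (9.75 at −3606 bp), and ANT, an AP2-type growth regulator (8.41 at −2972 bp). GRF4 was the one of the 10 with a nearer peak.

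Of the 14 transporter and channel genes found by keyword, 9 had a phase (64.3%), against 30.7% of all distal genes, and the median of their strongest distal peak was 7.20. Their phases ran from 4 to 21 h. The 64.3% was the highest share among the keyword classes. No such share was computed for the 30 transporter and channel genes without a distal peak, so it is not shown to be particular to distal ones. HA1, ACA8, PUP1, SUC2, GTR1 and ACA10 are among the 14 and also in the group read by role. In the group read by role, put together after the values were seen, 7 of 10 had a phase: 13 h for AVP1 (58.9) and for HA1, a plasma membrane proton pump (5.23 at −5422 bp), and 12 h for ACA8, the purine permease gene PUP1 (12.2 at −3175 bp) and the sucrose exporter gene SWEET12 (2.84 at −2824 bp). SUC2, the sucrose loader of the phloem, had 6.001 at −6621 bp and a phase of 4 h, and GTR1, a glucosinolate transporter gene, 7.60 at −3863 bp and 17 h. FRD3, a citrate transporter of iron nutrition (28.7 at −2574 bp), ACA10, a calcium pump (8.50 at −7478 bp), and SOS2, the kinase that activates a sodium exchanger, had no phase.

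Genes of photosynthesis, light and carbon metabolism were 8, of which 6 were rhythmic, beside 30.7% of all distal genes. GLK2, a factor that activates chloroplast genes, had 11.3 at −7697 bp and a phase of 2 h, and PSAD-1, a photosystem I subunit, 5.23 at −2775 bp and 3 h. PPC2, a phosphoenolpyruvate carboxylase, had 22.8 at −3927 bp and 6.001 at −2704 bp. The sucrose synthase gene SUS1 had 6.80 at −4907 bp. The invertase gene A/N-InvC had 11.3 at −3539 bp and 11.7 at −432 bp, and SIP2 11.99 at −2352 bp and 9.66 at −84 bp.

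Pseudogenes of either kind were 25 of the 277 genes (9.03%, interval 5.93 to 13.03), against 60 of 1325 (4.53%, interval 3.47 to 5.79), and 13 distal genes (4.69%, interval 2.52 to 7.89) were described as transposons, against 30 (2.26%, interval 1.53 to 3.22). With 3 lncRNAs and 2 microRNAs, and 0 tRNAs against 13 among the others, 30 distal loci did not code for a protein, none of them had a phase, and 1 had a nearer peak. Among genes without a distal peak, 523 of the 525 with a phase coded for a protein. The lack of a phase at loci of this kind is thus not particular to distal ones. AT3G23085, a hAT-like transposase locus, had 27.5 at −2408 bp, and AT3G33058 was given above. The sources used here do not say how reads that match several copies of a repeat were counted.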

How the data were processed

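The deposited table lists genes with up to 4 peaks each. The submitters' processing notes name Bowtie, the peak caller MACS2 (version 2.0.10.09132012) and the TAIR9 build; they are used here without knowledge of the peak threshold. Peak strengths are −log10 q values in the deposited table, per the file headers, of which 1 line says −log10 of the p-value instead. Positions are in bp from the TSS, and phases in h come from the Diurnal database (cut-off 0.8), per the file headers. Chromatin was cross-linked in 1% formaldehyde and sonicated into pieces of 100 to 1000 bp according to the labels' protocols, which bounds how finely a position is resolved.

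From this table every pair below −2000 bp was taken. Of 1602 loci, 1596 matched the TAIR10.1 gene table, used for symbols, biotypes and gene order only. Peaks of equal −log10 q under genes at most 5 places apart were treated as shared. Shares have exact 95% intervals and medians order-statistic intervals; no test was made. The code was tried on a made-up list with known answers. Genes named are the 15 strongest and 5 farthest pairs, those with 3 or more peaks, those with nearer or shared peaks, and members of 8 gene lists and the keyword classes. The members and lists were chosen with earlier results of these data known, and the keywords were revised and the role groups made after the values were seen. Planned results on the strand of neighbours and on the evening element were not computed because strands and sequences were not used here. Python 3.11.15, NumPy 2.4.6, pandas 2.3.3, SciPy 1.17.1 and Matplotlib 3.10.9 were used.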

Additional observations from a re-analysis of the deposited data

How the results depend on the processing

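Of 27 alternative values for 5 results, 21 stayed within the interval of the reported value, or within 1.5 times the count. The number of distal pairs was 168 with a limit of 3000 bp upstream and 142 with peaks above the median of the list alone; both settings remove pairs by construction. With peaks above that median 39.1% of distal genes had a phase. No like share was computed for genes without a distal peak, of which 47.7% had a phase above the cut of 9.75. In the same setting 15.04% of distal genes had a nearer peak, with weak nearer peaks removed as well. The share with a nearer peak was 28.7% with the limit at 3000 bp, where peaks over 2000 to 3000 bp upstream count as nearer, and 13.9% with shared peaks counted once, an alternative chosen after seeing the data. The share of phases from 6 to 11 h was 30.6%, and 22.4% and 38.8% with windows of 8 to 13 h and 4 to 9 h. With the window kept, it ran from 24.2% with a limit closer to the TSS to 36.5% with peaks above the list median. No like shares were computed in the other windows for genes without a distal peak. The window of 4 to 9 h leaves out 10 h (2 distal and 40 other genes) and 11 h (2 and 32). It takes in 4 h (6 and 22) and 5 h (5 and 38). Whether the lower distal share at 6 to 11 h holds in other windows was not tested. The alternatives for the strand of the upstream neighbour and for the evening element were not run. Depth is unknown, and 1 library per group leaves the variation between preparations unmeasured. No paired analysis was possible because ChIP and input are single libraries with no numbers to pair.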

Other observations

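The same −log10 q recurred more often among distal pairs. Leaving out peaks shared by neighbours, a value at or below the median of the list was held by another pair for 121 of 141 distal pairs (85.8%, exact interval 78.9 to 91.1) and for 446 of 696 nearer pairs (64.1%, interval 60.4 to 67.7). Above the median it was 80 of 115 distal pairs (69.6%, interval 60.3 to 77.8) and 289 of 710 nearer pairs (40.7%, interval 37.1 to 44.4). The value 6.80 was held by 22 distal and 48 nearer pairs, and 10.3 by 19 and 31. GA2OX1 and AT4G37380, on different chromosomes, hold the same 63.2. The cause was not tested, and equal values do not by themselves show that a peak is shared.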
